A study of Mus musculus with 3 samples.

Results

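The genes described here are 10 mouse genes of detoxification and glutathione metabolism (Gstm1, Gsta4, Gpx2, Nqo1, Hmox1, Gclc, Adh1, Fmo2, Fmo5 and Cyp4f15), all 10 of which were found by symbol, once each, among the 31053 mouse genes of the count matrices. They were chosen by their UMI levels in the cell classes of these same libraries, so their levels and differences are given as a description and carry no test. Each of 3 groups had 1 single-cell library. Adult bladder came from C57BL/6 mice of 8 to 9 weeks and pooled 8 bladders, without genetic change or treatment named in the labels. The other groups were bladder assembloids, in which bladder cells are reassembled into a tissue-like construct in culture. They were sampled after 1 day and after 7 days of reconstitution, with 3 assembloids pooled in each library. The labels used here give neither a strain nor the source of the assembloid cells, and a pool cannot show how its animals or constructs differed.

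Glutathione is a small thiol that cells hold at high concentration to neutralise reactive compounds. Gclc encodes the catalytic subunit of glutamate-cysteine ligase, which carries out the rate-limiting step of glutathione synthesis. Gstm1 and Gsta4 encode glutathione transferases, which join glutathione to electrophiles, and Gsta4 acts on 4-hydroxynonenal from oxidised lipids. Gpx2 encodes an epithelial glutathione peroxidase. Nqo1 reduces quinones, and Hmox1 breaks heme down to biliverdin, carbon monoxide and iron. Both are classical targets of the transcription factor NRF2. Adh1 oxidises alcohols including retinol, Fmo2 and Fmo5 are flavin-containing monooxygenases, and Cyp4f15 is a cytochrome P450 of a family that hydroxylates fatty acids. In the bladder, the urothelium is the lining that meets the xenobiotics of the urine.

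The bases before the transcription start are shown for 3 of these genes whose values below ran differently. At 1 day, Gstm1 was lower in urothelial, fibroblast and endothelial cells, and Nqo1 was lower in urothelial and higher in fibroblast cells. Gpx2 was higher at 1 day in urothelial cells. Whether the sequences bear on these differences was not tested. Each sequence is the 250 bases upstream of the RefSeq start (GRCm38.p6, the assembly called mm10), read 5′ to 3′ on the strand of the gene, which is the minus strand for all 3. Gstm1 lies at chr3:108017974-108018223, Nqo1 at chr8:107403206-107403455 and Gpx2 at chr12:76795555-76795804. Capitals mark GCGTG, the core at which the aryl hydrocarbon receptor binds.
Gstm1: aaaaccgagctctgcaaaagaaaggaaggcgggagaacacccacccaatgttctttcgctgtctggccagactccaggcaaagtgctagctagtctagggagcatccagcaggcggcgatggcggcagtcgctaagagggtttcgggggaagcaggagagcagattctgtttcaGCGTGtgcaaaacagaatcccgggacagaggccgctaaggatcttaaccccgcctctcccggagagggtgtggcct
Nqo1: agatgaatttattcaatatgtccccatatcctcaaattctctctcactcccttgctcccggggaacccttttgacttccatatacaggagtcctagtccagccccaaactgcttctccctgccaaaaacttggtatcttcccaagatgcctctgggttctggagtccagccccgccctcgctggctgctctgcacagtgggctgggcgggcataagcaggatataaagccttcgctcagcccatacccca
Gpx2: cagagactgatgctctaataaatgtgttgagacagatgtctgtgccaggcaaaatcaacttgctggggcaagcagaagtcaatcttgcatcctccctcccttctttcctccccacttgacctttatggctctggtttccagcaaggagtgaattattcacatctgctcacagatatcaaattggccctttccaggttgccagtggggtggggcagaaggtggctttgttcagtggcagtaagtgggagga
The RefSeq promoter table held 7 of the 10 genes in 9 windows of 250 bases. Gsta4, Gclc and Hmox1 had no entry. TGACNNNGC, the core of the antioxidant response element to which NRF2 binds, was searched on both strands. It matched in 0 of the 9 windows, against 10.2% of 32851 windows in the table. Bases further from the start were not searched, so this does not show that a gene lacks the element. GCGTG, chosen after the values were seen, matched in 2 of the 9 windows, both of Gstm1, against 28.2% of all windows. The Gstm1 windows overlap and the match is the same site, which begins at position -76 from the transcription start of the sequence shown and -231 from the other start.

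In the order bladder, 1 day and 7 days, the deposited libraries held 8642, 9039 and 9548 barcodes and 93560608, 135955678 and 120301672 UMIs (unique molecular identifiers, each standing for 1 captured transcript). After filtering, 6775, 8258 and 8172 mouse cells remained, with medians of 7543, 14940.0 and 9399.0 UMIs. Cells were classed by marker UMIs. Urothelial-like cells numbered 2701, 1455 and 2117, fibroblast-like cells 1486, 3363 and 3157, and endothelial-like cells 1079, 445 and 929. All 12 urothelial and all 10 endothelial markers were at 20 CPM or more in their own class in each library. Of the 10 fibroblast markers, 8 were so at 1 day, when their sum in fibroblast-like cells was 9511 CPM against 64043 in bladder and 4 of 7 smooth muscle markers were also at 20 CPM or more, summing to 1285 CPM against 90.3 in bladder. The part of this shift in the fibroblast results was not tested. Of 4683 cells at 1 day whose highest score was the fibroblast list, 3363 were kept in the class. Few kept cells shared a barcode between libraries (19, 24 and 22 for the 3 pairs). The 7-day library held cells of both profiles seen in the other libraries, which was seen only after the data were examined. Among the 30 nearest bladder or 1-day cells of each 7-day cell, at most 5% were bladder cells for 4351 cells (called assembloid-side here) and at least 95% for 3588 cells (bladder-side). The median depth of these cells was 19921 and 3339.5 UMIs. The 7-day totals below are therefore mixtures, subsets and shares of cells included.

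Levels are given as CPM, the UMIs of a gene scaled to 1000000 mouse UMIs over the summed cells of a class, and reads near the 3′ end are counted, so levels do not scale with gene length. Exact Poisson 95% intervals cover counting error only. For the totals of the 3 classes over all cells of a library they reached at most 8.0% either side of the 31 values of 100 CPM or more and 21.3% for the 28 values from 20 to 100 CPM, and they are wider for subsets, sides and smaller classes. Where 3 values are given together, they stand in the order bladder, 1 day and 7 days. With 1 library per group there was no measure of biological spread. A gene was counted as measured at 20 CPM or more in the higher library, and was called higher or lower when the levels were at least 2-fold apart and the counting interval left out 1.

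Among the glutathione genes of urothelial-like cells, Gstm1 was lower at 1 day, Gsta4 was close in all libraries and Gpx2 was higher at 1 day. Gstm1 stood at 20748 CPM in bladder, 2716 at 1 day and 16913 at 7 days, and a bladder urothelial-like cell held a mean of 491 UMIs of it. The 1-day level was 7.64-fold lower than that of bladder (log2 -2.93 [-2.95 to -2.91]). The gene lies in a cluster of similar Gstm genes on chromosome 3 (108012255 to 108017973, minus strand, mm10), and how reads matching several copies were counted is not given in the sources used here. Gsta4 (chromosome 9, 78182774 to 78209349, plus strand) measured 4446, 6146 and 4914 CPM, a difference of 0.47 on the log2 scale between 1 day and bladder [0.45 to 0.48]. Both transferases were thus abundant in the same cells, and the order of their levels was reversed at 1 day. Gpx2 (chromosome 12, 76792333 to 76795554, minus strand) measured 24.3 CPM [23.1 to 25.6] in bladder, 280.5 [269 to 292] at 1 day and 96.8 [92.5 to 101] at 7 days. The 1-day level was 11.5-fold higher than in bladder (log2 3.53 [3.43 to 3.62]). Gclc (chromosome 9, 77754535 to 77794485, plus strand), which starts glutathione synthesis, measured 237, 44.3 and 213 CPM, with a 1-day ratio of -2.42 on the log2 scale [-2.58 to -2.27].

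The quinone reductase and heme oxygenase genes were also lower in urothelial-like cells at 1 day. Nqo1 (chromosome 8, 107388225 to 107403206, minus strand) measured 53.3 CPM in bladder, 8.48 [6.59 to 10.8] at 1 day and 43.1 at 7 days, a 1-day log2 ratio of -2.64 [-3.02 to -2.31]. Hmox1 (chromosome 8, 75093621 to 75100589, plus strand) measured 421, 43.8 and 340 CPM, a 1-day log2 ratio of -3.26 [-3.42 to -3.11].

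Of the oxidising enzymes, Adh1 had the lowest 1-day ratio in urothelial-like cells. Adh1 (chromosome 3, 138260991 to 138290698, plus strand) measured 219.6 CPM in bladder, 5.99 [4.42 to 7.94] at 1 day and 169 at 7 days, so the 1-day level was 36.3-fold lower (log2 -5.18 [-5.64 to -4.79]). Fmo5 (chromosome 3, 97628804 to 97655282, plus strand) measured 1837, 144 and 1369 CPM and was 12.7-fold lower at 1 day than in bladder (log2 -3.67 [-3.76 to -3.59]). Cyp4f15 (chromosome 17, 32685627 to 32703352, plus strand) measured 134, 52.3 and 113 CPM, a 1-day log2 ratio of -1.36 [-1.51 to -1.22], the smallest of the 7 genes counted as lower. Fmo2 (chromosome 1, 162874317 to 162898726, minus strand), highest in fibroblast-like cells of bladder, stayed under 20 CPM in urothelial-like cells, with 16.8, 1.00 and 12.1 CPM.

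**Figure D1:**
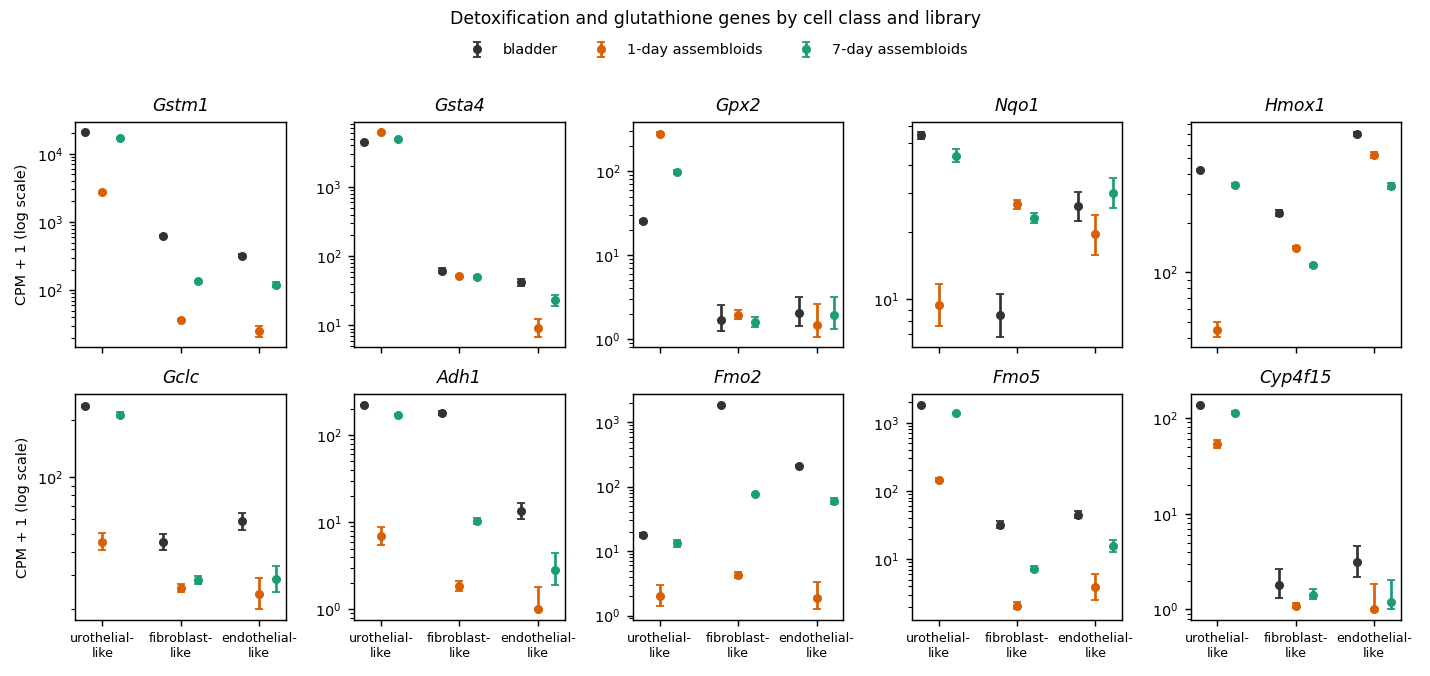
Level of each gene (CPM + 1, log axis) in urothelial-like, fibroblast-like and endothelial-like cells of the bladder, 1-day and 7-day libraries, with 1 point per library and bars for the exact Poisson 95% interval, which covers counting error only. Gpx2 in urothelial-like cells is at 24.3 CPM in bladder and 280.5 at 1 day, whereas Gstm1 goes from 20748 to 2716, and Fmo2 is highest in bladder fibroblast-like cells at 1854.

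In counts, 7 of the 9 genes measured in urothelial-like cells were lower at 1 day than in bladder, where 7.08% of 5766 genes tested were lower, and 1 (Gpx2) was higher, where 10.9% were higher. The median log2 ratio of the 9 was -2.64, beside 0.23 over the genes tested. Because the genes were proposed from such values, nothing is read from these counts. At 7 days against bladder, 0 of 9 were lower (0.0198% of 5061 genes) and 1, again Gpx2, was higher (1.34%), with a log2 ratio of 1.99. Against 1 day, 7 of 9 were higher at 7 days (4.3% of 5655 genes) and Gpx2 was lower (4.21%), at -1.54. These contrasts share libraries in pairs and are not independent of each other.

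**Figure D2:**
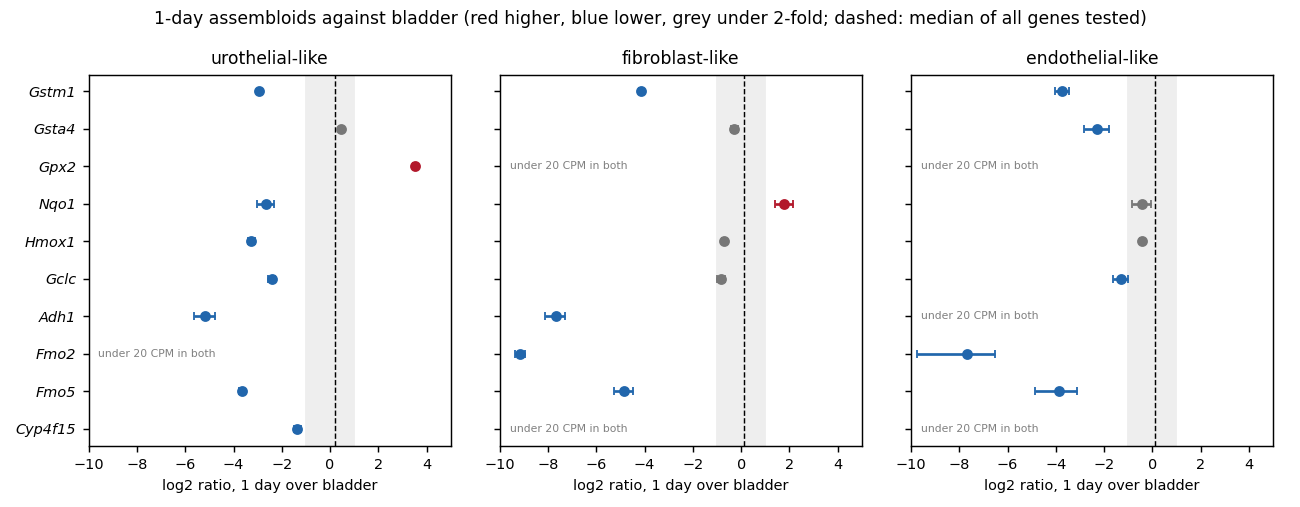
Log2 ratio of each gene, 1-day assembloids over bladder, in the 3 cell classes, with exact counting intervals, a grey band for under 2-fold and a dashed line at the median of all genes tested. Gpx2 lies at 3.53 in urothelial-like cells and Nqo1 at 1.76 in fibroblast-like cells, and all other points counted as changed lie to the left of the band.

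The 7-day urothelial values were made up of both kinds of cell. At 7 days, 621 urothelial-like cells were assembloid-side, and in them Gstm1 measured 2775 CPM, Gpx2 281, Hmox1 41.5, Adh1 8.23 and Fmo5 143, close to the 1-day values. In the 1473 bladder-side cells the same genes measured 22069, 28.9, 449.8, 228 and 1815 CPM, close to bladder. The other genes had the same arrangement, in assembloid-side and bladder-side cells respectively. Gsta4 measured 6288 and 4432 CPM, Gclc 56.5 and 269.6, and Nqo1 9.95 and 55.2. Cyp4f15 measured 49.8 and 136 CPM, and Fmo2 1.72 and 15.8. Between assembloid-side cells and the 1-day library, 0 of 7 measured genes were higher (0.0543% of 5529 genes) and 0 were lower (0.163%), and the ratio of Gpx2 was 0.00 on the log2 scale. Between bladder-side cells and bladder, 0 of 9 were higher (0.226% of 4874 genes) and 0 lower (0.0205%). The sides were set by similarity to those libraries, over variable genes that left out these 10, so likeness of this kind was partly built in. The higher 7-day totals against 1 day were thus not seen within assembloid-side urothelial-like cells.

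**Figure D3:**
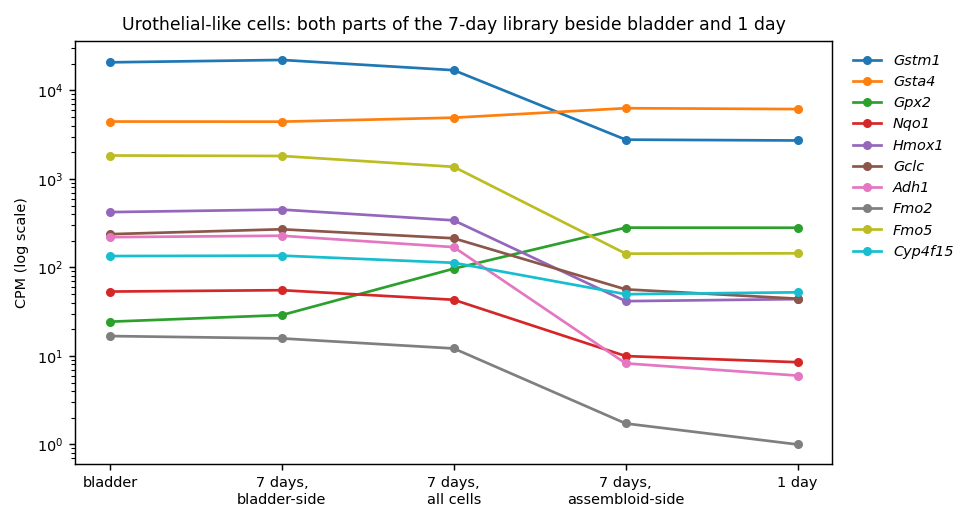
Level of each gene (CPM, log axis) in urothelial-like cells of bladder, of the bladder-side, all and assembloid-side cells of the 7-day library, and of the 1-day library, with lines that join the values of a gene and no error bars. Gstm1 is at 20748, 22069, 16913, 2775 and 2716 CPM in that order, while Gpx2 runs the other way, from 24.3 and 28.9 to 281 and 280.5.

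Within bladder urothelium few genes of any kind were called higher or lower between subsets cut from marker UMIs, and the genes described here varied little too. The counts of 0 below therefore do not set these genes apart from all genes tested. Krt5, a basal keratin, and Krt20, a keratin of the umbrella cells, divided bladder cells into 723 Krt5-high, 1212 Krt5-low and 766 Krt20-positive cells. These are ranges and not types, since 597 bladder cells lay within 1.25-fold of the Krt5 limit. Gstm1 measured 20771, 20803 and 20669 CPM in these subsets. Between Krt20-positive and Krt5-high cells, 0 of 9 measured genes were higher (0.28% of 4992 genes) and 0 lower (0.321%), and between Krt5-low and Krt5-high cells 0 were higher (0.0606% of 4952 genes) and 0 lower (0.101%). Nqo1 had the largest difference among the measured genes, with 70.8 CPM in Krt5-high, 53.0 in Krt5-low and 43.6 in Krt20-positive cells, a log2 ratio of -0.70 between the last and the first.

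In the 1-day library no cell was Krt20-positive, and 656 cells were high in Ndufa4l2 and Fxyd4, a profile that 0 bladder urothelial-like cells showed. Gpx2 was high in every 1-day subset, at 349 CPM in Krt5-high, 258 in Krt5-low and 256 in Ndufa4l2-high cells, against 27.4 in Krt5-high bladder cells. Gstm1 was low in every one of them, at 2615, 3440 and 2212 CPM. In the same 3 subsets, Fmo5 measured 63.5, 244 and 116 CPM, Cyp4f15 22.9, 58.1 and 65.6, and Hmox1 26.9, 40.5 and 56.7. In the 7-day library, the 209 Krt20-positive cells had bladder-like levels (Gstm1 22046, Fmo5 1918 and Gpx2 30.1 CPM), and the 275 Ndufa4l2-high cells had 1-day-like levels (2404, 153 and 246).

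The share of urothelial-like cells with a UMI followed the summed level after every cell was thinned to 2500 UMIs, which left out 40, 97 and 78 shallower urothelial-like cells. Gpx2 was found in 6.31% [5.42 to 7.31] of bladder cells, 47.6% [44.9 to 50.3] of 1-day and 19.8% [18.1 to 21.6] of 7-day cells, and without thinning in 35.5%, 68.8% and 39.8%. Adh1 was found in 37.9%, 0.957% and 28% of thinned cells, and Fmo5 in 95%, 19.3% and 73.2%. Gstm1 was still found in 87.3% of thinned 1-day cells and Gsta4 in 99.5%. Most 1-day cells thus still had a Gstm1 UMI and few had one of Adh1, but at a fixed depth the share depends on the level. These shares therefore do not show how either gene was spread over cells. As a reference for background in the same libraries, thinned endothelial-like cells (median depths 4898 and 9230 UMIs before thinning) had Gpx2 in 0.211% and 0.233% in bladder and at 1 day. Adh1 was in 3.06% of them in bladder and in 0 of 429 at 1 day, where 3 counts would make 0.699%.

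Fibroblast-like cells of bladder were rich in Fmo2, and at 1 day they held little of it. Fmo2 measured 1854 CPM [1826 to 1883] in bladder, 3.2 [2.78 to 3.66] at 1 day and 75.1 at 7 days, where assembloid-side cells had 10.2 and bladder-side cells 1786. The 1-day level was 578-fold lower (log2 -9.17 [-9.38 to -8.98]), the largest difference of any of the 10 genes in this class. A UMI of it was found in 81% of thinned bladder fibroblast-like cells and in 0.909% at 1 day. Adh1 followed the same order, with 177 CPM in bladder, 0.850 [0.642 to 1.10] at 1 day and 9.40 at 7 days (2.60 assembloid-side, 189 bladder-side), a 1-day log2 ratio of -7.69. Bladder fibroblasts with a UMI of Pi16, a marker of adventitial fibroblasts that was chosen after the values were seen, had 1942 CPM of Fmo2 and 179 of Adh1 in 1237 cells. The other 249 cells had 1390 and 169, so in bladder both groups held these genes. Any Pi16 UMI set the groups, at medians of 5915 and 5356 UMIs. Whether they are different kinds of fibroblast was not tested. At 1 day Fmo2 measured 10.0 CPM in 146 cells with a Pi16 UMI and 2.88 in 3217 without. At 7 days it measured 29.3 and 7.88 CPM in assembloid-side cells, and 1982.5 and 1327 in bladder-side cells.

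Nqo1 went the opposite way in fibroblast-like cells. It measured 7.5 CPM [5.79 to 9.56] in bladder, 25.6 [24.4 to 26.9] at 1 day and 22.2 [21.0 to 23.4] at 7 days, with 22.5 in assembloid-side and 8.86 in bladder-side cells. Its 1-day log2 ratio was 1.76 [1.41 to 2.15]. Its level is close to the 20 CPM minimum, and at 7 days it was under it with median-of-ratios scaling (log2 1.40) and with means over cells (1.44). Hmox1 measured 229, 140.0 and 109 CPM (101 assembloid-side, 326 bladder-side) and Gclc 44.1, 24.8 and 27.3, each under 2-fold at 1 day. Gstm1 measured 623, 35.2 and 134 CPM, Fmo5 30.8, 1.06 and 6.25, and Gsta4 60.8, 50.1 and 49.4, where free urothelial RNA in bladder would give 253, 22.4 and 54.3. Assembloid-side and bladder-side cells at 7 days had 116 and 599.9 CPM of Gstm1, 5.18 and 34 of Fmo5, 48.4 and 71.3 of Gsta4, and 26.5 and 48.5 of Gclc. Gpx2 and Cyp4f15 stayed below 1 CPM in the totals of all 3 libraries. In counts, 4 of 8 measured genes (Gstm1, Adh1, Fmo2 and Fmo5) were lower at 1 day, where 19.3% of 6569 genes were lower, and 1 (Nqo1) was higher, where 19.5% were. The median log2 ratio of the 8 was -2.49, beside 0.13 over the genes tested. At 7 days against bladder, 5 of 8 were lower (16.8% of 6517 genes), Hmox1 being added at -1.07 on the log2 scale, and 1 was higher (16.6%). Against 1 day, 2 of 6 measured genes were higher at 7 days (1.87% of 5657 genes), Fmo2 at 4.55 and Gstm1 at 1.93, and 0 were lower (0.159%). In assembloid-side cells alone Gstm1 was 1.72 above 1 day, whereas Fmo2 was under 20 CPM in both. The part of free urothelial RNA in the Gstm1 difference was not tested.

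In bladder, endothelial-like cells had the highest Hmox1 level of the 3 classes, at 695 CPM [675 to 716], and they kept 516 [495 to 537] at 1 day, a log2 ratio of -0.43. At 7 days they had 335, made up of 143 in assembloid-side and 786 in bladder-side cells. The 1-day endothelial level was above that of urothelial-like cells (43.8) and fibroblast-like cells (140.0) of the same library. Fmo2 measured 208 CPM in bladder, 0.893 [0.243 to 2.29] from 4 UMIs at 1 day and 60.0 at 7 days (5.68 assembloid-side, 187 bladder-side). The 1-day log2 ratio of Fmo2 was -7.70 [-9.74 to -6.51]. Gclc, the glutathione synthesis gene, measured 57.1, 23.0 and 27.9 CPM, and Nqo1 25.1, 18.5 and 29.0. Gstm1 measured 321, 23.9 and 120 CPM, Gsta4 40.9, 8.26 and 22, and Fmo5 43.9, 2.90 and 14.6. The 7-day assembloid-side and bladder-side cells differed in these genes, with 78.4 and 213 CPM of Gstm1, 13.6 and 42.0 of Gsta4 and 6.82 and 31.5 of Fmo5. They had 18.5 and 48.8 CPM of Gclc, and 18.7 [14.5 to 23.8] and 24.7 [17.7 to 33.7] of Nqo1. Adh1 measured 12.6 CPM in bladder and 0 UMIs at 1 day, which allows up to 0.670 CPM at 3 counts. Of 7 measured genes, 5 (Gstm1, Gsta4, Gclc, Fmo2 and Fmo5) were lower at 1 day, where 22.4% of 6948 genes were lower, and 0 were higher (22.6%). The median log2 ratio of the 7 was -2.29, beside 0.10 over the genes tested. In bladder the Gsta4 level of this class was below the level that free urothelial RNA would give, as set out below. The part of free RNA in these counts was not tested. At 7 days against bladder 5 of 7 were lower (10.6% of 6614 genes), with Hmox1 at -1.05 and without Gsta4 at -0.89, and 0 were higher (12.1%). Against 1 day, 3 of 6 (Gstm1, Gsta4 and Fmo2) were higher at 7 days (8.13% of 6373 genes) and 0 lower (1.79%). In assembloid-side cells alone, Gstm1 was 1.71 above 1 day on the log2 scale and Hmox1 lay at -1.85. Gsta4 and Fmo2 were under 20 CPM in both these cells and the 1-day library. The part of free urothelial RNA in the Gstm1 difference was not tested.

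Nqo1 was unevenly spread within the endothelium. Prox1 and Lyve1, markers of lymphatic endothelium, were used to split the class after the values were seen. Nqo1 measured 45.4 CPM in the 311 bladder cells with a UMI of either and 16.9 in the 768 cells without, a log2 ratio of 1.43 [0.97 to 1.89], where 6.76% of 6375 genes were higher. At 1 day it measured 94.5 CPM [72.3 to 121] in 65 cells and 5.74 [3.60 to 8.69] in 380, a log2 ratio of 4.02 [3.32 to 4.82] (7.89% of 6454 genes higher). At 7 days it measured 118 CPM in 147 cells and 10.9 in 782, a log2 ratio of 3.43 (7.17% of 6582 genes higher). The 7-day values again differed by side. In assembloid-side cells Nqo1 measured 106 CPM [77.6 to 141] in 30 cells with a marker UMI and 6.48 [3.96 to 10.0] in 289 without (log2 4.01), and in bladder-side cells 53.3 [28.4 to 91.1] in 85 and 19.7 [13.0 to 28.6] in 470 (log2 1.47). At 1 day and in assembloid-side cells, Nqo1 was thus above bladder in cells with a lymphatic marker UMI and below it in those without. Depth differed, with medians of 4588 UMIs in bladder, 8914 at 1 day and 11552.5 in assembloid-side cells with a marker UMI. Whether the split held the same kinds of cell in each library, and the part of free marker RNA in it, was not tested. Hmox1 was even in bladder, at 709 and 689.9 CPM with and without a marker UMI, and uneven at 1 day, at 178 and 573. Fmo2 in bladder was lower in the cells with a marker UMI, at 133 against 239 CPM.

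**Figure D4:**
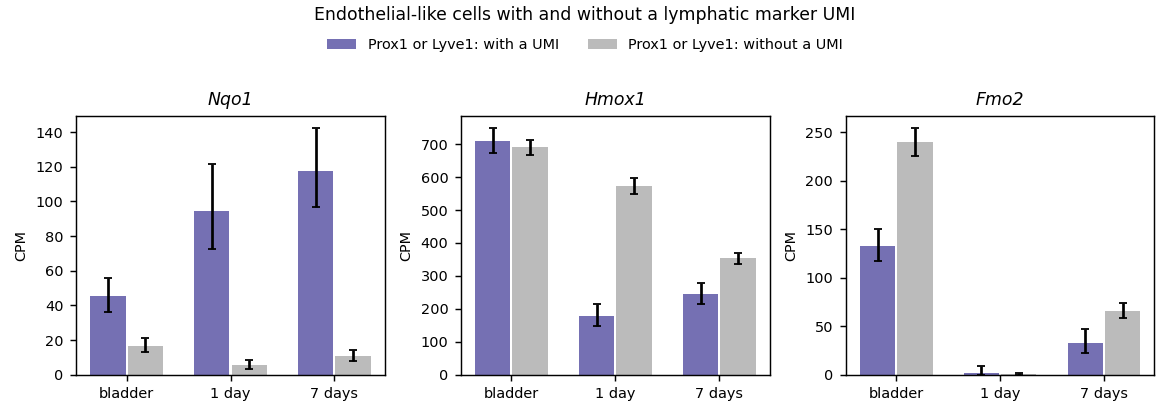
Level of Nqo1, Hmox1 and Fmo2 (CPM, linear axis) in endothelial-like cells with and without a UMI of Prox1 or Lyve1, by library, with exact Poisson 95% intervals for counting error. Nqo1 is higher in the cells with a marker UMI in each library, at 94.5 against 5.74 CPM at 1 day, and Hmox1 at 1 day is the other way round, at 178 against 573.

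Free RNA from lysed cells gives UMIs in all droplets, and urothelial genes that stroma should lack show its size. Over the 6 urothelial reference genes Ivl, Fxyd3, Upk1b, Krt19, Sprr1a and Gsdmc2, the median ratio of the CPM in fibroblast-like to that in urothelial-like cells was 1.22% in bladder and 0.423% at 1 day, and for endothelial-like cells 1.18% and 0.249%. At that ratio, bladder fibroblast-like cells would show 54.3 CPM of Gsta4 and 22.4 of Fmo5, beside measured values of 60.8 and 30.8. Bladder endothelial-like cells would show 52.6 CPM of Gsta4 and 21.7 of Fmo5, beside 40.9 and 43.9. For Gstm1 the values are 253 beside 623 in fibroblast-like and 245 beside 321 in endothelial-like cells of bladder. The reference ratio was itself lower at 1 day, and its part in the lower stromal Gstm1, Gsta4 and Fmo5 was not tested. The 12 urothelial class markers summed to 33.8 CPM at 1 day and 71.7 at 7 days over all fibroblast-like cells. Over all endothelial-like cells they summed to 33.5 and 75.6 CPM. The part of free RNA in the higher stromal Gstm1 at 7 days was not tested either. Other genes lay far above it: Hmox1 would reach 5.14 CPM in bladder fibroblast-like cells against 229 measured, Adh1 2.68 against 177, Gclc 2.90 against 44.1 and Nqo1 0.651 against 7.5. In 1-day fibroblast-like cells Nqo1 would reach 0.0359 CPM against 25.6. With 6 fibroblast reference genes, whose ratios ranged from 0.686% to 17.8%, the median gave 32.1 CPM of Fmo2 in bladder endothelial-like cells against 208 measured.

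**Figure D5:**
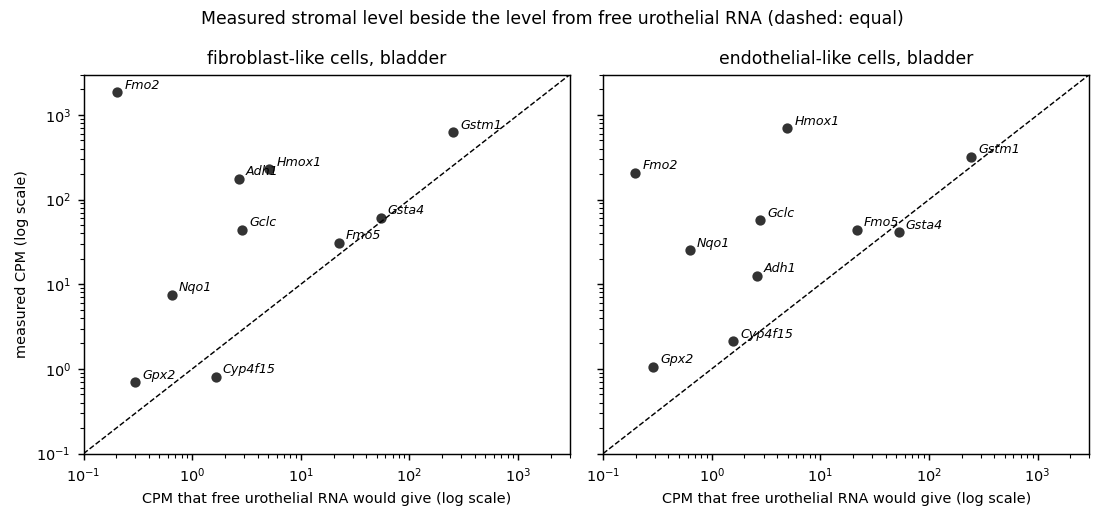
Measured level of each gene in fibroblast-like and endothelial-like cells of bladder (CPM, log axis) against the level that free urothelial RNA would give at the median ratio of 6 reference genes (log axis), with a dashed line where they are equal. Gsta4 sits near the line at 60.8 against 54.3 CPM in fibroblast-like cells, and Fmo2, Hmox1, Gclc and Nqo1 sit far above it in both classes.

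Other genes of these pathways were counted at 1 day against bladder in 6 lists, which were chosen with earlier results of these data known. In urothelial-like cells, 1 of 20 measured genes of glutathione synthesis and the NRF2 pathway was higher (Gsr, glutathione reductase, 52.1 to 108 CPM from bladder to 1 day) and 3 were lower, among them Me1, which makes NADPH, at 177 to 79.5 CPM. Gclm, the modifier subunit that pairs with Gclc, measured 137 and 71.2 CPM, just under 2-fold. Of 12 other glutathione transferases measured there, 0 were higher and 4 lower, with Gstm4 at 241 to 71.4 CPM and Mgst1, a microsomal transferase, at 917 to 421. Gsto1 went from 831 to 1486 CPM and Mgst3 from 756 to 457, each under 2-fold. For peroxide removal 1 was higher and 1 lower of 11, and for phase I oxidation 3 and 2 of 13. Conjugation and efflux had 0 and 0 of 2, and heme metabolism with the aryl hydrocarbon receptor had 0 and 1 of 6. Median log2 ratios were -0.21 for the NRF2 list and -0.50 for the transferases, beside 0.23 for all genes tested. The share of all genes past the same limits in this class was 10.9% higher and 7.08% lower.

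In fibroblast-like cells, 8 of 20 measured genes of the NRF2 list were higher at 1 day and 3 lower. Those named by size were Tkt and Taldo1 of the pentose phosphate pathway, at 70.1 to 169.8 and 120.3 to 282 CPM, and the ferritin heavy chain Fth1, at 9396 to 3615, with Sqstm1 at 262 to 109. Of 11 transferases, 1 was higher (Gsto1, 35.5 to 313 CPM) and 6 lower, with Gstt1 at 145 to 4.28. Among 13 phase I genes 0 were higher and 4 lower. Fmo1, a further monooxygenase, went from 217 to 0.607 CPM, and the retinaldehyde dehydrogenase Aldh1a1 from 111 to 4.22. Median log2 ratios were 0.78, -1.81 and -0.74 for these 3 lists, beside 0.13 for all genes tested, of which 19.5% were higher and 19.3% lower. The lists of peroxide removal (2 higher and 2 lower of 14), conjugation and efflux (1 and 1 of 4) and heme metabolism (0 and 3 of 8) complete this class.

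In endothelial-like cells, 7 of 12 peroxide removal genes were higher and 0 lower, with the peroxiredoxin Prdx5 at 103 to 389.7 CPM, where 22.6% of all genes were higher. The median log2 ratio of that list was 1.09, beside 0.10 for all genes tested. The NRF2 list had 7 higher and 2 lower of 18, the transferases 2 and 1 of 6, conjugation and efflux 0 and 4 of 6, and heme metabolism 0 and 3 of 7. In the phase I list 2 of 11 were higher and 5 lower. Akr1b8 went from 6.21 to 104 CPM and Adh5 from 75.7 to 178, while Aldh2 went from 256 to 87.8. Cyp1a1, an aryl hydrocarbon receptor target, went from 127 to 1.79 CPM in this class, and Tiparp, another such target, from 301 to 19.9. Tiparp was also lower in fibroblast-like cells (147 to 26.3 CPM) and urothelial-like cells (116 to 40.4). The sulfotransferase Sult1a1 went from 128 CPM to 1 UMI in endothelial-like cells, a log2 ratio of -8.58 [-14.47 to -6.68].

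The genes with the most similar pattern were sought over 9 profiles, the 3 classes in 3 libraries, by Pearson r of log2(CPM + 5) among 2756 genes. The 9 profiles share libraries and classes, so r is a description. Gstm1 was most like Upk3a, a uroplakin of the luminal urothelial surface (r 0.987), and Fmo5 most like Dusp16 (0.994) and then Upk3a (0.993). Gsta4 was most like Tmc4 (0.997), Cyp4f15 like Aldh3b2 (0.999) and Gpx2 like Gsdmc2 (0.997), a gasdermin gene. Gclc was most like Tmem64 (0.993) and Adh1 like Hpgd (0.974), which inactivates prostaglandins. Fmo2 was most like Itih5 (0.981), with the related monooxygenase gene Fmo1 at 0.958. Hmox1 had the lowest best match, Ifrd1 at 0.907, and Nqo1 was left out because it was below 100 CPM in every profile. The naming depends on the offset: with 20 CPM added in place of 5, 19 of the 27 genes ranked in the first 3 were the same. Smim14 then came first for Gstm1, with Upk3a no longer among its first 3, and Upk3a came before Dusp16 for Fmo5.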

How the data were processed

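Per the labels, single cells of enzymatically dissociated tissue were captured with the 10x Genomics 3′ kit (v3). The authors deposited raw UMI counts, a whole number for each gene in each barcode, not normalized. Cell Ranger 3.1.0 is named in the file headers, and the feature names carry GRCh38 or mm10 prefixes. The annotation release is not given in the sources used here. Mouse cells had at least 90% of UMIs on mm10 genes, 500 genes, under 20% mitochondrial UMIs and no Scrublet doublet call (scanpy 1.11.5, 3.39%, 3.28% and 2.41% called). A class was the marker list with the highest mean ln(1 + UMIs per 10000), with 3 markers detected and a score 1.5 times the next. Counts were summed per class and library, scaled to CPM and compared with 0.5 counts added (Python 3.11.15, scipy 1.17.1). The calling rule was tested on simulated data with counting error only, which does not cover spread between libraries. All 10 genes were named, and of each related list up to 4 genes with the largest absolute log2 ratio at 100 CPM or more. The 10 genes and the lists were chosen with earlier results of these data known. Subsets were cut at 10 UMIs of Ndufa4l2 plus Fxyd4 per 10000, 2 Krt20 UMIs and the 67th percentile of Krt5. The 7-day sides used 30 principal components of 1975 variable genes. Positions come from GENCODE vM21 and promoters from RefSeq. Human and mixed barcodes (147, 115 and 138, and 157, 25 and 351) were not used.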

Additional observations from a re-analysis of the deposited data

Results flagged for a closer look

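Nqo1 differed in opposite directions between cell classes at 1 day against bladder, with a log2 ratio of -2.64 in urothelial-like and 1.76 in fibroblast-like cells, each from 1 library per group. The difference between these ratios was not tested.

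Hmox1 was also measured in cell classes that the comparisons did not use. The 68 myeloid cells of bladder had 1770.3 CPM of it [1611 to 1941]. The 84 myeloid cells of the 1-day library had 499.6 [449 to 554], and the 85 of the 7-day library had 614 [558 to 674]. In pericyte-like cells it measured 206 CPM [170 to 247] in bladder (171 cells) and 700.1 [558 to 868] at 7 days (69 cells), and no 1-day cell took that class. The myeloid value of bladder lay above the endothelial-like level of 695 CPM in that library, and the pericyte-like value lay below it.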

How the results depend on the processing

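The 18 counts of higher or lower genes (3 classes, 3 contrasts, each direction) stayed within 1.5 times under a class margin of 1.2 or 2, doublet calls kept, under 10% mitochondrial UMIs, at least 1000 genes, 1 count added and shared barcodes left out. Without Ndufa4l2-high cells the 6 urothelial counts did too, but 18 urothelial gene ratios moved beyond their counting interval and 9 did not. With the minimum at 100 CPM, 7 counts moved: 7 days against bladder, urothelial higher 0, fibroblast higher 0 and endothelial lower 3; 1 day against bladder, fibroblast higher 0 and endothelial lower 2; 7 days against 1 day, fibroblast and endothelial higher 1 each. With no minimum the last pair became 5 each. Median-of-ratios scaling and means over cells each took the fibroblast 7-day higher count to 0, and the latter also took the endothelial lower count to 1. Under median-of-ratios scaling 25 gene ratios moved beyond their counting interval and 44 did not. Under means over cells 36 moved and 33 did not.

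With assembloid-side 7-day cells alone, 7 urothelial genes were lower than in bladder, 0 were higher and 0 lower than at 1 day, and against 1 day fibroblast higher became 1, endothelial higher 1 and endothelial lower 1. Signs turned for urothelial Gpx2 (0.0045), Hmox1 (-0.0754), Fmo5 (-0.0125) and Cyp4f15 (-0.0703) against 1 day. With bladder-side cells alone, the counts against bladder became 0 for urothelial higher, fibroblast higher, fibroblast lower and endothelial lower, and those against 1 day became 5 for fibroblast and endothelial higher and 1 for fibroblast lower. Signs against bladder turned for Hmox1 (0.51), Adh1 (0.10) and Fmo5 (0.15) in fibroblast-like and Hmox1 (0.18) in endothelial-like cells. The sides were added after the data were examined.

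Of 90 shares of cells, 69 moved beyond their interval when cells were thinned to 5000 UMIs in place of 2500. No paired analysis was possible because each group had 1 library, and no library was left out for the same reason. Gpx2 and Cyp4f15 were under 20 CPM in stroma, with few UMIs in endothelial-like cells, and the part of free RNA in these levels was not tested.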
